A study of Homo sapiens with 28 samples.

Results

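Protein phosphatase 2A (PP2A) genes were followed across the MBNL1 knockdown libraries, with FAM122B, a relative of the PP2A inhibitor FAM122A, and 7 subunit genes of the phosphatase as members. The members were the rows of the expression table that carry the Ensembl identifiers of FAM122B, PPP2R2D, PPP2R2A, PPP2CA, PPP2CB, PPP2R1A, PPP2R5A and PPP2R5C, which are 8 of 22391 genes, and all rows of the splicing table with these symbols, which are 46 of 100814 splicing events in 11 junction clusters. FAM122B had been chosen for an alternative 3' splice site that shifted with knockdown and PPP2R2D for a difference between hairpins, so all comparisons of their knockdown values are given here as a description with no test. The other 6 members were chosen for their function in the enzyme.

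The libraries came from MOLM13 and MV4;11, established acute myeloid leukemia lines with the fusions MLL-AF9 and MLL-AF4. Cells carried a lentiviral hairpin against MBNL1 (hairpin 64 or hairpin 65) or the non-targeting hairpin shNT. The study's methods isolate transduced cells with puromycin or, for fluorescent constructs, by sorting. Puromycin is stated only for the MOLM13 libraries with hairpin 64 and the first shNT set at day 4. The 28 libraries form 9 groups: MOLM13 with hairpin 64 and a first shNT set at day 4 of the study's methods (n = 3 each, 72 h of puromycin), MOLM13 with hairpin 65 (n = 4) and a second shNT set (n = 3), MV4;11 with shNT, hairpin 64 and hairpin 65 (n = 3 each), and a day 12 pair of MOLM13 groups carrying shNT or hairpin 64 (n = 3 each). The study's methods give n = 4 for MV4;11 with shNT and with hairpin 65, where the labels hold n = 3, and the labels were used. For the hairpin 65 and MV4;11 libraries no source used here states a harvest day. The day-12 libraries were sequenced on another instrument. The 2 MV4;11 comparisons share their shNT libraries. Nothing in the sources says that the libraries other than those of day 12 came from separate cultures, so p-values measure the spread between these libraries.

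MBNL1, the splicing factor that the hairpins target, was left at 14.4% of shNT in MOLM13 with hairpin 64, at 16.6% in MV4;11 with hairpin 64 and at 16.7% in MOLM13 at day 12. Hairpin 65 left 67.3% in MOLM13, where the fall did not pass adjustment (adjusted p = 0.209, limma), and 53.3% in MV4;11 (adjusted p = 0.0367, limma). Depth, read from the smallest step between RPKM values, ran from 34.4% to 100% of the deepest library. The day-4 libraries numbered 3 were the shallowest in both groups and stood apart from the rest in MOLM13, so values that rest on them are also given without them. Of the 10 myeloid markers examined 9 reached an RPKM (read count scaled to transcript length and library size) of 1, and their sum was 1025 to 4262 per library, while CD14 had group means of at most 0.0973. The 8 markers of other cell types that were measured here summed to 1.46 to 12.2. KRT18 reached 1 in all 28 libraries, CD79A in 3 and COL1A1 in 2, and CD3E, CD3G, EPCAM, COL1A2 and HBB in none. In these bulk libraries fewer cells of a kind and less RNA per cell cannot be told apart.

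PP2A is a serine/threonine phosphatase assembled from a catalytic subunit (PPP2CA or PPP2CB), a scaffold (PPP2R1A or PPP2R1B) and one of many regulatory subunits that select the substrate. Regulatory subunits of the B55 family, which includes PPP2R2A and PPP2R2D, act in mitotic exit, and those of the B56 family, which includes PPP2R5A and PPP2R5C, act on signalling and chromosome alignment. Small inhibitor proteins such as FAM122A, ENSA and ARPP19 block B55 holoenzymes, and SET and KIAA1524 (also named CIP2A) restrain PP2A in leukemia and other tumours. MBNL1 binds YGCY motifs in RNA and can raise or lower the use of nearby exons and splice sites.

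FAM122B, named PABIR2 in newer annotation, lies at chrX:133903596-133931262 on the minus strand of GRCh37, and its 5' end overlaps PABIR3 on the opposite strand. Its alternative site is a choice between 2 last exons joined to the same upstream exon. Splicing to the proximal acceptor at 133906313 crosses an intron of 9537 bases, and the distal acceptor at 133905384 lies 929 bases further along the transcript. Both last exons end the open reading frame. The proximal exon adds 142 coding bases and a stop codon. The distal exon adds 67 coding bases and another stop codon. With the same upstream exons, the annotated proteins are 266 residues for the proximal exon (ENST00000493333) and 241 for the distal exon (ENST00000298090). In the longest annotated proximal transcripts, ENST00000370790 and ENST00000343004, the stretch between the stop codon and the distal exon is 3' untranslated sequence. Other proximal transcripts, ENST00000493333 among them, end before the distal exon. The coding ends are shown because they are what the 2 products do not share; the capitals mark the stop codon, and both are read from GRCh37 on the minus strand.
Proximal coding end, chrX:133906169-133906313: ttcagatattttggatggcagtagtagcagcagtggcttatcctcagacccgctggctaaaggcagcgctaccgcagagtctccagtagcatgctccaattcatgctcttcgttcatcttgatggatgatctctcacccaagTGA
Distal coding end, chrX:133905315-133905384: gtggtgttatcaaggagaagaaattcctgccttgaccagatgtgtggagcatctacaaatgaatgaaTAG

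**Figure D1:**
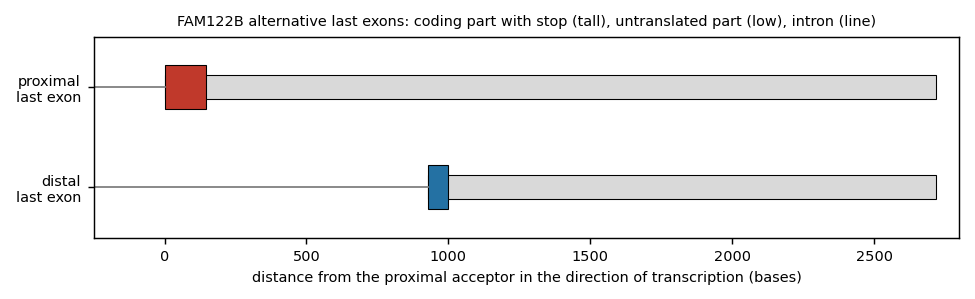
Annotated alternative last exons of FAM122B, drawn by distance in bases from the proximal acceptor in the direction of transcription, with coding parts and stop codon as tall boxes, untranslated parts as low boxes and introns as lines. The distal exon starts 929 bases after the proximal one, and the proximal transcript drawn, of the longest annotated length, runs through it as untranslated sequence. Shorter annotated proximal transcripts end before it.

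The bases before each acceptor are shown for the motif that MBNL1 binds. The search was for the YGCY motif in its 4 forms, with Y standing for C or T, on the transcribed strand and not on the other, counting overlapping matches. The form TGCT is the one seen before the proximal acceptor. The capitals mark the matches.
Before the proximal acceptor, chrX:133906314-133906463: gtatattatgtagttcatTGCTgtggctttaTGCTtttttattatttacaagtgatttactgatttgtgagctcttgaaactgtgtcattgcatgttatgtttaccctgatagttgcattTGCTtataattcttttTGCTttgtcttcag
Before the distal acceptor, chrX:133905385-133905414: gaatatataaaatattgttgatatttctag
The 150 intron bases before the proximal acceptor hold 4 matches, and the 30 bases before the distal one hold 0. In windows of 250 bases, 5 matches stand before the proximal acceptor and 9 before the distal one. Among the 68156 acceptors of all splicing events, 24.29% had at least 5 matches in that window and 3.01% had at least 9, with a median of 3. In the 250 bases after the acceptor both sites had 5 matches, and 28.79% of all acceptors had at least 5. These are counts of letters in the reference and not measured binding.

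In shNT cells FAM122B used both last exons, and with either hairpin it used mostly the proximal one. The value is percent spliced in (PSI), the share of the cluster's competing junction reads that go to the proximal acceptor. In MOLM13 at day 4 the shNT libraries were at 49.2%, 46.9% and 40.4% and the hairpin 64 libraries at 94.3%, 97.5% and 96.4%. At day 12 the shNT libraries were at 40.0%, 31.7% and 41.2% and the hairpin 64 libraries at 98.4%, 99.0% and 100%. The groups did not overlap at either time, and of all events tested 5.77% at day 4 and 6.93% at day 12 were higher without overlap. At day 12 the distal junction was at 1.6%, 0.9% and 0.0%.

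In MV4;11 the 3 shNT libraries were at 43.8%, 17.2% and 35.7%, and the hairpin 64 libraries at 90.8%, 91.1% and 92.5%. Hairpin 65 gave 82.1%, 76.6% and 74.7% in this line. In MOLM13 the hairpin 65 libraries were at 93.4%, 79.4%, 72.6% and 88.2%, against 35.7%, 52.8% and 54.2% in the second shNT set. Every knockdown library was above every shNT library of both lines, the lowest knockdown value being 72.6% and the highest shNT value 54.2%. In the same direction 5.61% of all events did not overlap with hairpin 64 in MV4;11, 4.74% with hairpin 65 in MV4;11 and 4.06% with hairpin 65 in MOLM13. The gene was chosen for this pattern, so nothing is read from it.

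The differences in mean were 50.5 percentage points in MOLM13 with hairpin 64, 61.5 at day 12, 59.2 in MV4;11 with hairpin 64, 45.6 in MV4;11 with hairpin 65 and 35.9 in MOLM13 with hairpin 65. The group means ordered as 99.1% ± 0.82 (SD, n = 3) at day 12 with hairpin 64, 96.1% ± 1.66 (n = 3) in MOLM13 and 91.5% ± 0.93 (n = 3) in MV4;11 with hairpin 64, then 83.4% ± 9.23 (n = 4) in MOLM13 and 77.8% ± 3.88 (n = 3) in MV4;11 with hairpin 65. The shNT groups followed at 47.6% ± 10.3, 45.5% ± 4.57, 37.6% ± 5.19 and 32.2% ± 13.6 (n = 3 each). The 3 hairpin 64 groups did not overlap each other, and the share of all events that separate in this way is not given here. FAM122B was chosen from these values and the day-12 libraries ran on another instrument, so nothing is read from this order. The hairpin 65 groups overlapped each other, the MOLM13 one also overlapped MV4;11 with hairpin 64, and each shNT group overlapped its neighbours in this order. The hairpin 65 groups kept more MBNL1 than the hairpin 64 groups and had the lowest means of the knockdown groups. Between the 2 hairpin 65 groups the order was the reverse. MOLM13 kept 67.3% of MBNL1 with the higher mean, and MV4;11 kept 53.3% with the lower one. A link to the MBNL1 level was not tested, and hairpin, line and MBNL1 level cannot be told apart here.

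**Figure D2:**
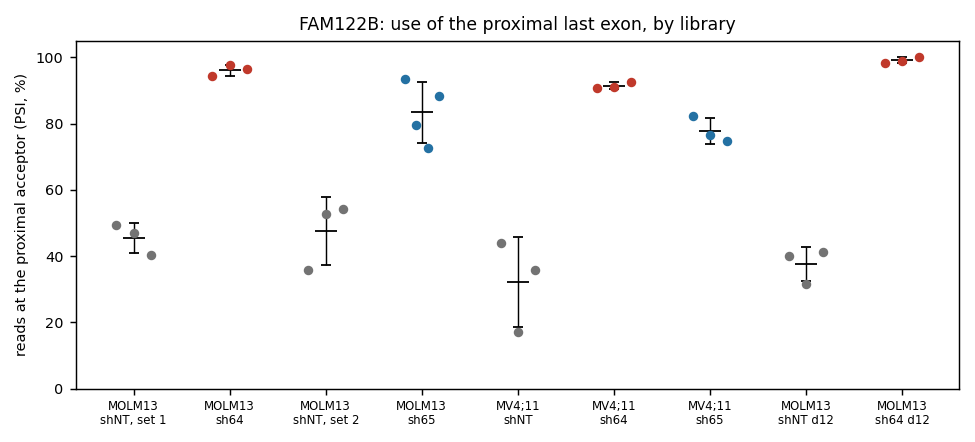
PSI in percent of the FAM122B proximal acceptor in each library (points) with group mean and SD (bars), for shNT (grey), hairpin 64 (red) and hairpin 65 (blue). The knockdown libraries lie between 72.6% and 100% and the shNT libraries between 17.2% and 54.2%.

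Between the hairpins in MV4;11 the means of proximal use were 13.7 points apart, with hairpin 64 the higher. In shNT cells proximal use was 15.3 points lower in MV4;11 than in the second MOLM13 set, with an interval of -40.5 to 9.87 (95%, limma) that includes 0.

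A minor junction from within the proximal exon to the distal acceptor, whose inner end is 133906173, makes an internal exon of the proximal coding sequence. It was at 0.0% to 4.2% in the shNT libraries. In MV4;11 it was at 8.3%, 26.7% and 36.4% with hairpin 64 and at 0.0%, 8.3% and 9.1% with hairpin 65, where the libraries overlapped shNT. With hairpin 65 in MOLM13 it was at 16.7%, 9.1%, 0.0% and 28.6%, again overlapping shNT through one library. A single MOLM13 hairpin 64 library had a value at each time, 45.5% at day 4 and 81.2% at day 12. The junction was measured in 24 of 28 libraries, and its share is taken among junctions to the distal acceptor. The main junction to that acceptor was lower in every knockdown library than in every shNT library. With hairpin 64 at day 12 the main junction was at 1.6%, 0.9% and 0.0%. The share of the minor junction can therefore rise with no gain in its own reads. Whether the internal exon itself was gained was not tested.

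The cassette exon and a tandem acceptor pair of FAM122B differed less with knockdown. For its cassette exon of 57 bases, the junction out of the exon had a PSI of 20.2% to 44% over the MOLM13 libraries of day 4 and day 12, with differences in mean of -2.06 points at day 4 and -2.90 points at day 12. The junction into the same exon went the other way, by 3.90 points at day 4 and 4.94 points at day 12, and the skipping junction by -2.77 and -4.08 points. The groups overlapped at all 3 junctions at both times. The tandem pair, 3 bases apart, was at 30.1% to 50.3% for the minor site over all 28 libraries. In shNT cells the junction out of the cassette exon differed between the lines, at 42.4%, 36.7% and 36.2% in MV4;11 against 21.1%, 22.8% and 26.9% in the second MOLM13 set. The MV4;11 values were all higher, by 14.9 points (standard error 2.51, unadjusted p = 0.00299, adjusted p = 0.345, limma), and the junction that skips the exon was 14.8 points lower (adjusted p = 0.435, limma). Both passed the study's rule for splicing, which asks for a raw p no higher than 0.01 and a PSI difference beyond 0.1 (10 points), and are called here in that sense, as were 1.16% of all events in this comparison. Neither of the 2 was called without replicate 2 of MV4;11 or without the first or second library of the second MOLM13 set. The skipping junction was also not called without replicate 1 or 3 of MV4;11. The junction into the exon was 6.92 points higher, with an interval of -6.19 to 20.04 that includes 0, and was not called.

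FAM122B transcript level did not follow the change of last exon. Group means lay between 4.07 and 5.46 RPKM. Hairpin 64 changed it by 0.09 on the log2 scale in MOLM13, -0.03 in MV4;11 and -0.02 at day 12, and hairpin 65 by -0.22 in MOLM13 and -0.24 in MV4;11, always as log2(RPKM + 1). With hairpin 65 the libraries were at 3.79, 4.81, 4.26 and 4.27 RPKM in MOLM13 against 5.00, 5.37 and 5.09 in its shNT set, below it without overlap, as were 5.75% of all genes. In MV4;11 they were at 3.82, 4.48 and 3.92 RPKM against 5.38, 5.64 and 4.08, with overlap. Between the hairpins in MV4;11 the difference was 0.21 on the log2 scale, hairpin 64 the higher.

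Over the means of the 9 groups, the splicing events of other genes most like FAM122B proximal use were cassette exon junctions of APP (Pearson r = 0.986), CAMKK2 (r = 0.984) and ARHGAP17 (r = 0.982), out of 3045 events called in at least 1 knockdown comparison. APP inclusion means were 56.5% to 68.5% in shNT groups and 86.6% to 100% in knockdown groups. For transcript level the nearest genes were SENP2 (r = 0.960), SYNGR1 (r = 0.954) and TXNL4A (r = 0.944) of 10002 genes. These r values describe 9 group means, several from the same line and instrument. The events compared had all been called in a knockdown comparison, so a high r with a site chosen for its knockdown shift was favoured in advance.

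PPP2R2D encodes the delta member of the B55 family and lies at chr10:133747955-133773331 on the plus strand. It was higher with hairpin 64 and not with hairpin 65, the difference it was chosen for. In MOLM13 at day 4 it was at 9.05, 8.99 and 15.57 RPKM with hairpin 64 against 5.79, 5.71 and 4.49 with shNT. In MV4;11 it was at 11.14, 10.77 and 10.05 RPKM with hairpin 64, 4.29, 4.25 and 4.13 with hairpin 65, and 5.36, 4.94 and 5.35 with shNT. At day 4 the hairpin 64 libraries were above their shNT set, as were 9.72% of all genes without overlap. In MV4;11 they were above shNT (20.6% of all genes) and above hairpin 65 (17.2%), while the hairpin 65 libraries lay below shNT (9.89%).

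The ratio of mean RPKM to shNT was 2.1 for hairpin 64 in MOLM13, 2.04 in MV4;11 and 1.38 at day 12. It was 0.976 for hairpin 65 in MOLM13 and 0.810 in MV4;11. On the log2 scale the day-4 change was 0.91, and 0.57 without both libraries numbered 3, of which the hairpin 64 one was the highest. At day 12 the hairpin 64 libraries were at 12.94, 11.57 and 11.57 RPKM and the shNT libraries at 8.76, 8.70 and 8.63. The day-12 shNT level was above all other shNT libraries, which ran from 4.48 to 5.79, and day and instrument cannot be told apart there. In shNT cells the lines differed by 0.05 on the log2 scale (MV4;11 minus the second MOLM13 set, 95% interval from limma including 0, adjusted p = 0.878).

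A cassette exon of 113 bases at chr10:133748398-133748510 had higher means with hairpin 64 than with shNT in both lines, at the junction into it and the junction out of it, and a lower mean at the junction that skips it. In the annotation it occurs in 1 PPP2R2D transcript, ENST00000482010, typed as a target of nonsense-mediated decay, in which 33 of its bases are coding before a stop codon. Its start is shown for that stop codon, in capitals, and the intron before it for the YGCY matches, in capitals.
Cassette exon start, chr10:133748398-133748433: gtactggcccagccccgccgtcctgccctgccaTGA
Intron before the exon, chr10:133748298-133748397: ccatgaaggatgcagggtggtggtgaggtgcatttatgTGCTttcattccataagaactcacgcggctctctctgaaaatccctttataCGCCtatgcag
The 100 intron bases hold 2 matches. The window of 250 bases before this acceptor holds 4, and 37.6% of all acceptors had at least as many.

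The junction into this exon was at 13.7%, 10.7% and 17% with hairpin 64 at day 4 against 5.4%, 2.9% and 4.7% with shNT. At day 12 it was at 18.1%, 14.0% and 16.7% against 7.8%, 2.5% and 6.2%. In MOLM13 the groups were apart at both times, with mean differences of 9.46 and 10.7 points, where 5.77% and 6.93% of all events were higher without overlap. The junction out of the same exon was at 23.8%, 17.1% and 15.8% against 6.1%, 6.1% and 7.7% at day 12, also apart. At day 4 it was at 7.4%, 10.3% and 18.8% against 6.1%, 5.4% and 12.2%, with overlap.

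In MV4;11 the junction into the exon was at 15.3%, 10.0% and 8.7% with hairpin 64, 6.0%, 10.3% and 4.5% with hairpin 65, and 4.0%, 2.7% and 10.3% with shNT, and these groups overlapped. The junction out of it was at 9.7%, 9.8% and 14.3% with hairpin 64 against 7.5%, 4.8% and 5.2% with shNT, apart, as were 5.61% of all events in that direction. With hairpin 65 it was at 3.0%, 18.3% and 2.9%, on both sides of shNT.

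The junction that skips the exon was lower with hairpin 64 in every comparison. It was at 73.7%, 78.1% and 66.7% against 86.8%, 86.8% and 79.2% at day 4, and at 62.8%, 70.4% and 65.7% against 76.6%, 84.7% and 81.0% at day 12. In MV4;11 it was at 66.5%, 70.5% and 73.4% with hairpin 64, 90%, 66.1% and 87.5% with hairpin 65, and 86.5%, 85.9% and 82.4% with shNT. The hairpin 64 groups did not overlap their shNT groups, as for 6.53%, 7.57% and 5.9% of all events in that direction at day 4, at day 12 and in MV4;11, with mean differences of -11.4, -14.5 and -14.8 points.

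With hairpin 65 in MOLM13 all 3 junctions of the exon overlapped the shNT set. The junction into the exon was at 5.4%, 13.7%, 2.0% and 5.8% against 8.3%, 3.4% and 13.0%, and the mean differences were -1.51 points for it, 3.52 for the junction out and -2.50 for skipping.

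A second choice in the gene, an acceptor 127 bases downstream of the usual one at 133757472, was at 14.8% to 20.4% with hairpin 64 at day 12 against 4.4% to 9.5% with shNT. At day 4 it was at 10.8% to 15.4% against 1.5% to 11.4%, with overlap. In MV4;11 it was at 15.0%, 11.3% and 13.2% with hairpin 64 against 8.8%, 3.6% and 2.6% with shNT, apart, and hairpin 65 overlapped both at 6.2%, 13.0% and 8.2%. In MOLM13 with hairpin 65 it was at 6.2% to 10.7% against 3.7% to 18.1%, with overlap. Of all events 6.93% at day 12 and 5.61% with hairpin 64 in MV4;11 were higher without overlap. The usual acceptor, its counterpart, was at 77.9% to 98.4% over all libraries. Neither the 127 bases nor the 113 bases of the cassette exon divide into whole codons.

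**Figure D3:**
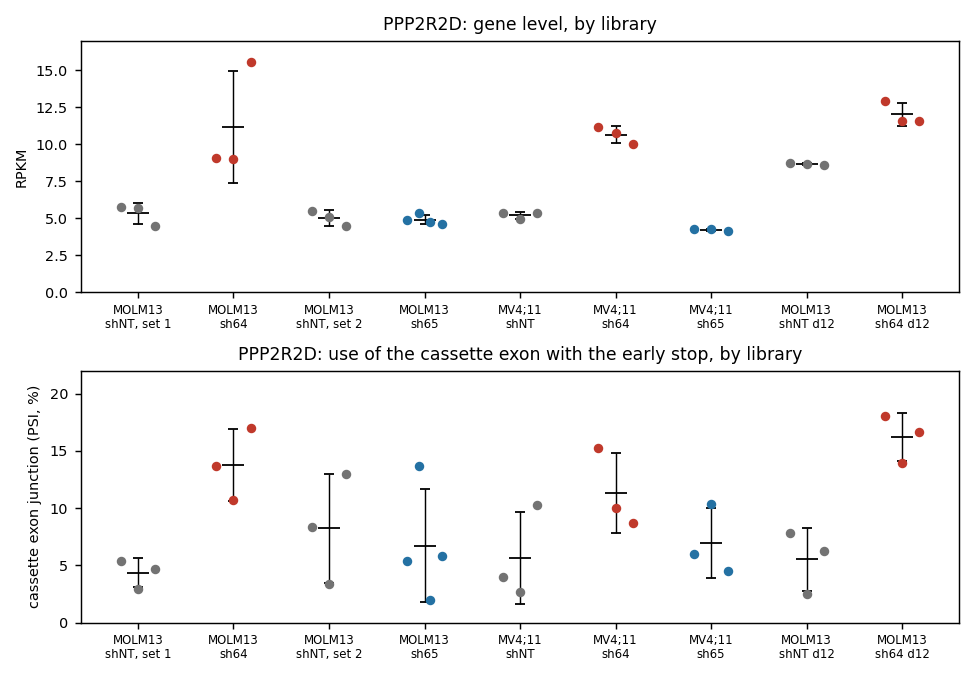
PPP2R2D level in RPKM (top) and PSI in percent of the junction into its cassette exon with the early stop (bottom), by library, with group mean and SD, for shNT (grey), hairpin 64 (red) and hairpin 65 (blue). Hairpin 64 libraries lie at 8.99 to 15.57 RPKM and hairpin 65 libraries at 4.13 to 5.36 RPKM.

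The genes most like PPP2R2D over the 9 group means were DGCR2 (r = 0.935), C1orf85 (r = 0.931) and PILRA (r = 0.925) of 10002 genes. Of the PPP2R2D junctions not described above, the one before the exon upstream of the alternative acceptor was at 98.8% or more, the one after the alternative acceptor at 96.5% or more and the last one, read against a junction to a site outside the gene, at 93.8% or more in all libraries.

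The remaining 6 subunits were tested in all 5 knockdown comparisons, and none was called by the study's rule for expression (raw p no higher than 0.01 and a 1.5-fold change, limma). Of all genes tested, 2.42% were called with hairpin 64 in MOLM13, 3.24% with hairpin 65 in MOLM13, 6.51% and 3.63% with hairpins 64 and 65 in MV4;11, and 5.52% at day 12. At an unadjusted p under 0.05 with no limit on size, 1 of the 6 passed in each of MOLM13 hairpin 64, MOLM13 hairpin 65 and MV4;11 hairpin 65, 3 in MV4;11 hairpin 64 and 4 at day 12. The shares of all genes at that limit were 10.3%, 18.2%, 21.6%, 33.9% and 56.7%.

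**Figure D4:**
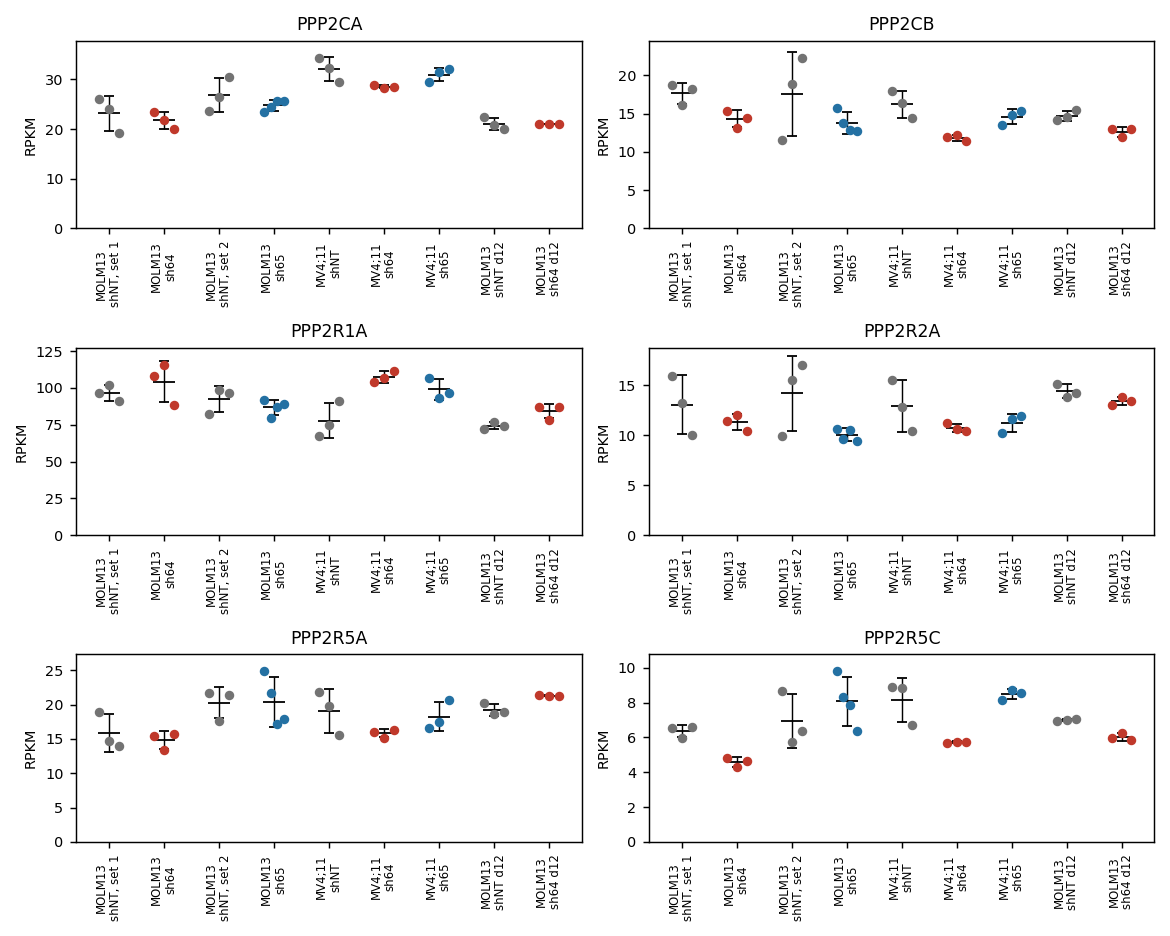
RPKM of the 6 PP2A subunit genes tested, by library (points) with group mean and SD (bars), each on its own axis from 0, for shNT (grey), hairpin 64 (red) and hairpin 65 (blue). PPP2R5C lies lower in the hairpin 64 libraries than in the shNT and hairpin 65 libraries of MV4;11.

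Of the catalytic genes, PPP2CA was the steadier. Its means were 21.03 to 32.0 RPKM, and its changes ran from -0.16 (MV4;11 hairpin 64, 95% interval -0.39 to 0.08) to -0.002 (day 12, 95% interval -0.11 to 0.11) on the log2 scale. PPP2CB, on chromosome 8, had lower means than shNT in all 5 comparisons. It was at 11.95, 12.21 and 11.45 RPKM with hairpin 64 in MV4;11 against 17.92, 16.41 and 14.42 with shNT, below it without overlap, as were 17.5% of all genes. The log2 change was -0.42 (standard error 0.11, unadjusted p = 0.00559, adjusted p = 0.0590, limma), short of the fold that a call needs.

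At day 12 PPP2CB was at 12.94, 11.92 and 13.06 RPKM against 14.19, 14.57 and 15.43, a log2 change of -0.21 with a small spread (adjusted p = 0.0115, limma). With hairpin 65 its changes were -0.29 in MOLM13, where the shNT set itself ran from 11.51 to 22.32 RPKM, and -0.14 in MV4;11, with intervals that include 0. The direct test in MV4;11 put hairpin 64 0.28 below hairpin 65 on the log2 scale (adjusted p = 0.0243, limma). In MOLM13 at day 4 the change with hairpin 64 was -0.28, with an adjusted p of 0.0314 when the replicate number was a block (limma). All of these are less than the 1.5-fold change.

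PPP2R1A, the main scaffold, was the most abundant member per length at 74.2 to 107 RPKM. With hairpin 64 in MV4;11 it was at 104, 106 and 112 RPKM against 67.4, 74.8 and 90.9 with shNT. The libraries did not overlap, as for 20.6% of genes in that direction, and the log2 change was 0.47 (unadjusted p = 0.00618, adjusted p = 0.0613, limma). It would be called without shNT replicate 3 of MV4;11, the highest shNT library, at 0.59 on the log2 scale. The change was 0.35 with hairpin 65 in MV4;11 (adjusted p = 0.189, limma) and 0.18 at day 12 (adjusted p = 0.0255, limma), but -0.09 with hairpin 65 in MOLM13. The MV4;11 values share their controls.

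PPP2R2A, the other B55 subunit among the members and also on chromosome 8, showed no rise like that of PPP2R2D. With hairpin 64 its log2 changes were -0.17 in MOLM13 (95% interval -0.62 to 0.28), -0.23 in MV4;11 (-0.56 to 0.10) and -0.10 at day 12 (-0.21 to 0.01). With hairpin 65 in MOLM13 it was at 10.64, 9.60, 10.54 and 9.41 RPKM against 9.94, 15.55 and 17.07 with shNT. The groups overlap through one shNT library, and the change was -0.43 (unadjusted p = 0.0410, adjusted p = 0.258, limma). Without that library it was -0.65 and would be called (adjusted p = 0.0260, limma).

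PPP2R5C, a B56 subunit, had lower means with hairpin 64 and not with hairpin 65, and its level was called in no comparison. In MOLM13 at day 4 it was at 4.84, 4.3 and 4.66 RPKM against 6.56, 5.99 and 6.62 with shNT, a log2 change of -0.40 with no overlap, as for 8.24% of genes in that direction (unadjusted p = 0.0135, adjusted p = 0.343, limma). With the replicate number as a block, which these day-4 libraries share, the adjusted p was 0.0156 (limma), and the change stayed short of the fold limit. The share of all genes at that adjusted p in the blocked fit is not given here. In MV4;11 PPP2R5C was at 5.67, 5.75 and 5.74 RPKM with hairpin 64, 8.17, 8.74 and 8.55 with hairpin 65 and 8.90, 8.82 and 6.70 with shNT. The hairpin 64 libraries lay below both other groups of MV4;11, as did 17.5% of all genes against shNT and 24.3% against hairpin 65. The log2 change against shNT there was -0.43, with an adjusted p of 0.0867 when the replicate number was a block (limma). These MV4;11 libraries share only a number, and same-numbered deviations correlated at -0.08 to 0.03 in RPKM, so nothing is read from that block. The p of the fit with no block is not given here.

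The direct test put PPP2R5C 0.50 lower with hairpin 64 than with hairpin 65 in MV4;11 on the log2 scale (standard error 0.06, 95% interval -0.64 to -0.36, adjusted p = 0.00111, limma), a ratio of 0.674 in mean RPKM. It falls short of a call because the log2 change asked for is 0.585 and not because of its p. Of all genes, 3.4% passed an adjusted p under 0.05 with that change, which PPP2R5C did not reach. The share at that adjusted p with any size of change is not given here. At day 12 it was at 5.94, 6.26 and 5.86 RPKM against 6.95, 7.0 and 7.08, a change of -0.19 with no overlap, as for 23.7% of genes (adjusted p = 0.00588, limma). Hairpin 65 changed it by 0.20 in MOLM13 (95% interval -0.20 to 0.59) and 0.06 in MV4;11 (-0.23 to 0.36).

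PPP2R5A, the other B56 subunit, was at 14.8 to 21.3 RPKM on average. With hairpin 64 its change was -0.08 in MOLM13, -0.24 in MV4;11 and 0.14 at day 12 (adjusted p = 0.0295, limma at day 12). The 95% interval in MV4;11 was -0.55 to 0.07. It took no single direction over the comparisons, and its response at day 12 minus that at day 4 was 0.22 (95% interval -0.13 to 0.57), not called. Of the 6 subunits tested for a difference between hairpins in MV4;11, between lines and between days, 0 were called by limma in each, against 3.38%, 0.653% and 0.397% of all genes. At an unadjusted p under 0.05 the counts were 2, 0 and 0. The shares of all genes at that limit are not given for these contrasts, so nothing is read from the counts. Of 28 events in these genes tested for a difference between days 0 were called by limma, against 0.779% of all events, and 0 had an unadjusted p under 0.05. Of 29 tested between the hairpins in MV4;11 0 were called by limma, against 1.16%, and 1 had an unadjusted p under 0.05. For events too the shares of the whole table at an unadjusted p under 0.05 are not given for these contrasts.

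Of the splicing events in the 6 subunits, 28 or 29 were tested per knockdown comparison and 0 were called by limma under the rule for splicing, against 1.73%, 1.28%, 1.64%, 0.866% and 2.34% of all events in MOLM13 with hairpin 64, MOLM13 with hairpin 65, MV4;11 with hairpin 64, MV4;11 with hairpin 65 and day 12. At an unadjusted p under 0.05 the counts were 0, 2, 1, 0 and 2, where 7.69%, 7.76%, 7.73%, 5.57% and 10.6% of all events passed. PPP2CB and PPP2R1A had no event in the table, PPP2CA had 3, PPP2R2A 6, PPP2R5A 9 and PPP2R5C 11.

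The event of PPP2R5C with calls outside the knockdown comparisons was a coding cassette exon of 117 bases at chr14:102384168-102384284. The junction into it was at 43.6%, 36.8% and 39.4% with hairpin 64 in MV4;11 against 49.5%, 52.0% and 48.3% with shNT. The difference was -9.98 points with no overlap, as for 5.9% of events in that direction (unadjusted p = 0.00752, adjusted p = 0.316, limma), and just under the difference of 10 points that a call needs. Without hairpin 64 replicate 1 it was -11.8 points and called. In MOLM13 at day 4 it was at 56.3%, 51.2% and 49.2% against 44.3%, 53.2% and 39.0%, 6.71 points higher (95% interval -5.07 to 18.5). The junction out of the same exon did not show the fall in MV4;11, at 31.8%, 47.8% and 36.8% with hairpin 64 against 18.2%, 29.0% and 36.8% with shNT, 10.8 points higher (95% interval -7.57 to 29.2). The skipping junction differed by 1.62 points there (95% interval -4.43 to 7.68). The 3 junctions therefore give no single direction for the exon in MV4;11. The junction out was 8.02 points higher in MOLM13 at day 4 (95% interval -1.88 to 17.9) and the skipping junction changed by -8.49 points (95% interval -19.8 to 2.78).

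At the junction into the exon the 2 responses to hairpin 64 differed by -16.7 points (MV4;11 minus MOLM13, 95% interval -28.1 to -5.25, unadjusted p = 0.00956, adjusted p = 0.816, limma), where 0.794% of all events were called. At the junction out of the exon they differed by 2.79 points (95% interval -15.4 to 20.96) and at the skipping junction by 10.1 points (95% interval -1.06 to 21.3), and neither was called. The call was lost without any one library of the 4 groups other than hairpin 64 replicate 1 of MV4;11 and the first shNT set's replicate 2. In MOLM13 with hairpin 65 the junction into the exon was at 49.7%, 59.7%, 40.0% and 56.5% against 37%, 42.6% and 33.9%, 13.6 points higher with overlap (unadjusted p = 0.0474, adjusted p = 0.642, limma). Without replicate 3 of hairpin 65 it was 17.5 points higher and called (adjusted p = 0.406, limma). The junction out was 7.57 points higher (95% interval -3.21 to 18.3), and the skipping junction 11.7 points lower, without overlap as for 3.57% of all events (unadjusted p = 0.0223, adjusted p = 0.538, limma). In shNT cells the junction into the exon was 12 points higher in MV4;11 than in the second MOLM13 set (unadjusted p = 0.00822, adjusted p = 0.464, limma), and the call was lost without any one of 5 of the 6 libraries. The junction out was at -5.22 points (95% interval -20.4 to 10.00).

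The wider PP2A list held 36 genes by role, of which 35 were in the expression table; FAM122A was not analysed here, and FAM122C, PPP2R2B, PPP2R2C and PPP2R3A were under a mean RPKM of 1. Leaving out FAM122B and PPP2R2D, 29 were tested in each knockdown comparison. With hairpin 64 in MOLM13 1 was called higher and 0 lower (all genes 1.33% and 1.09%), in MV4;11 2 and 1 (3.89% and 2.62%), and at day 12 0 and 0 (3.27% and 2.25%). With hairpin 65 it was 0 and 0 in MOLM13 (1.76% and 1.48%) and 1 and 1 in MV4;11 (1.78% and 1.85%). At an unadjusted p under 0.05 with no limit on size there were 2 higher and 4 lower with hairpin 64 in MOLM13, 3 and 7 in MV4;11, 9 and 6 at day 12, 1 and 5 with hairpin 65 in MOLM13, and 2 and 3 in MV4;11. The shares of all genes at that limit, in both directions together, were 10.3%, 33.9%, 56.7%, 18.2% and 21.6%. The median log2 change of the tested list was -0.08, -0.16, -0.002, -0.08 and -0.05 in that order, and the median over all genes was between -0.001 and 0.06.

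STRN4, a striatin and so a scaffold-type regulatory subunit of the STRIPAK complexes of PP2A, was the gene called most often. In MV4;11 it was at 22.73, 20.65 and 23.88 RPKM with hairpin 64 and 20.34, 17.76 and 16.63 with hairpin 65, against 7.93, 9.07 and 13.37 with shNT. Both knockdown groups were above shNT without overlap, as were 20.6% of all genes with hairpin 64 and 16.2% with hairpin 65. The log2 changes were 1.1 (standard error 0.18, adjusted p = 0.0189, limma) and 0.82 (standard error 0.18, unadjusted p = 0.00218, adjusted p = 0.0684, limma), against the same controls, and the second was not called without shNT replicate 2, at 0.76.

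In MOLM13 at day 4 STRN4 was at 24.10, 25.66 and 27.48 RPKM with hairpin 64 against 14.06, 15.23 and 16.32, with no overlap, as for 9.72% of genes in that direction. The log2 change was 0.72 (standard error 0.12, unadjusted p = 0.00105, adjusted p = 0.182, limma). With the replicate number as a block, which these day-4 libraries share, the adjusted p was 0.00720 (limma). At day 12 it was at 24.58, 23.83 and 25.61 RPKM against 17.02, 15.86 and 16.21, with no overlap, as for 35.8% of genes, a change of 0.56 that fell just under the fold limit (adjusted p = 6.12e-05, limma). It was 0.59 and called without hairpin 64 replicate 2 or shNT replicate 1. With hairpin 65 in MOLM13 the change was 0.31 (adjusted p = 0.218, limma). The other striatins, STRN and STRN3, were not called in any of the 5 comparisons.

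KIAA1524, an inhibitor of PP2A that stabilises MYC, was lower in MV4;11 with both hairpins. It was at 1.92, 1.79 and 1.34 RPKM with hairpin 64 and 1.41, 1.91 and 1.96 with hairpin 65, against 4.08, 3.21 and 2.50 with shNT. The log2 changes of -0.66 (adjusted p = 0.0441, limma) and -0.62 (adjusted p = 0.0891, limma) rest on low values and the same controls. The first was not called without hairpin 64 replicate 3, at -0.56, or without shNT replicate 1 or 2, at -0.52 and -0.66, and the second without hairpin 65 replicate 1 or 2 or shNT replicate 1 or 2, between -0.48 and -0.66.

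In MOLM13 at day 4 KIAA1524 was at 7.1, 5.12 and 1.52 RPKM with hairpin 64 against 11.39, 9.03 and 2.04, so the libraries numbered 3 were the low ones in both groups. Without both of them the change was -0.66 and called (adjusted p = 0.0298, limma). At day 12 the change was -0.31 (adjusted p = 0.00115, limma) and with hairpin 65 in MOLM13 it was -0.54 (unadjusted p = 0.00183, adjusted p = 0.143, limma), both short of the fold limit. The hairpin 65 change was -0.60 and called without hairpin 65 replicate 2 or the second library of its shNT set.

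PPP4C, the catalytic subunit of the related phosphatase PP4, was at 78.4, 78.6 and 78.1 RPKM with hairpin 64 in MV4;11 against 41.2, 44.7 and 65.0. The change was 0.66 (unadjusted p = 0.00401, adjusted p = 0.0507, limma), and it was not called without any one of 5 of the 6 libraries, with changes of 0.53 to 0.66 there. ANP32A, an inhibitor related to SET, was not called in this fit but was with the replicate block in MOLM13 at day 4 (log2 change -0.64, adjusted p = 0.00911, limma). It was chosen after its values were seen, so nothing is concluded from its p-values. Against shNT in MV4;11 the log2 change in the blocked fit was -0.55 with hairpin 64 and 0.02 with hairpin 65, neither called. ANP32A was 0.58 lower with hairpin 64 than with hairpin 65 in MV4;11 on the log2 scale (adjusted p = 9.23e-04, limma).

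**Figure D5:**
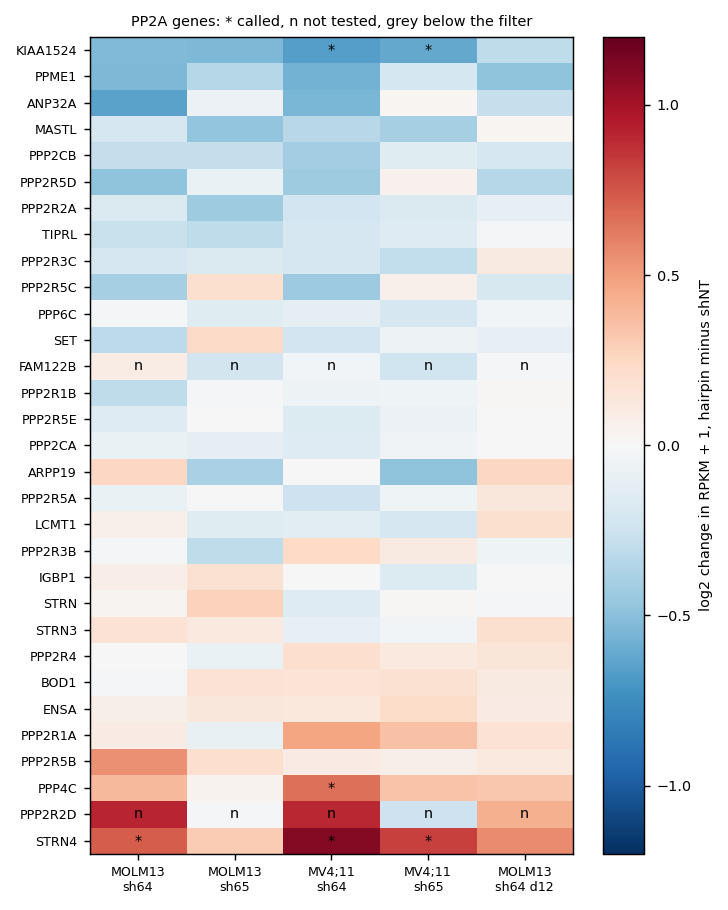
Log2 change in RPKM + 1 (colour, hairpin minus shNT) of the PP2A list genes that passed the filter, one row per gene ordered by mean change, in the 5 knockdown comparisons. Stars mark called genes, n marks members chosen from these values and not tested; STRN4 is starred in 3 comparisons and KIAA1524 in 2.

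In shNT cells the lines were compared with 31 list genes, including all 8 members, and 0 members were called by limma, nor did any reach an unadjusted p under 0.05, as 29.6% of all genes did. Of all genes 14.2% were called. The 3 list genes called were lower in MV4;11 than in the second MOLM13 set. KIAA1524 differed by -1.30 on the log2 scale (adjusted p = 0.00310, limma). PPP2R3B, a regulatory subunit of the PR72 family, differed by -1.30 (adjusted p = 0.00420, limma). MASTL, the kinase that activates the inhibitors ENSA and ARPP19, differed by -1.07 (adjusted p = 0.00852, limma).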

How the data were processed

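Total RNA of 28 libraries from MOLM13 and MV4;11 cells was sequenced by the study, and the analysis started from 2 deposited tables. The RPKM table was made by the authors from reads aligned to hg19 with STAR, scaled to transcript length and library size, one value per gene and library. The splicing table holds PSI as a fraction from 0 to 1 per event and library, made by the authors from junction reads with the MultiPath-PSI method of AltAnalyze, and is printed here as a percent. Its columns of the authors' own PSI differences and predictions were not used, and 0 columns of other samples were present. No raw counts were used, so the depth of each library was read only relative to the deepest, from the step between its low RPKM values (whole multiples within 0.02 for 100% of them), and PSI values carry no read number here.

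Libraries were grouped by their labels. The columns of the second shNT set could be tied to the group and not to single samples. Expression was tested on log2(RPKM + 1) with limma 3.58.1 in R 4.3.3, in each pair of groups alone, after dropping genes whose mean RPKM was under 1 in both groups. The study's limits were used (raw p no higher than 0.01, 1.5-fold change). Fold changes on this scale understate those of low genes. PSI was tested with limma on events measured in over 50% of the libraries of each group, with the same limit on p and a PSI difference beyond 0.1. Line and day differences were interaction terms over 4 groups. Adjusted p-values are Benjamini-Hochberg over each whole table. Replicate numbers paired the day-4 MOLM13 libraries, whose same-numbered deviations from the group means correlated at 0.80 to 0.88 in RPKM and 0.11 to 0.30 in PSI. The scripts were tested on simulated data. Sequences and gene models were read from GRCh37 with pysam 0.24.0, and figures were drawn with matplotlib 3.10.9.

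The members and the PP2A list were chosen with earlier results of these data known. All members, the list genes called in at least 1 knockdown comparison, the member events called in any comparison, and the 3 nearest genes or events by likeness are named. The alternatives were other pseudocounts, filters, fits, thresholds, centring, controls and left-out libraries. FAM122A was not analysed here, and 1 marker gene of another cell type is not reported here.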

Additional observations from a re-analysis of the deposited data

Results flagged for a closer look

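The response to hairpin 64 of the junction into the PPP2R5C cassette exon differed between the lines by -16.7 percentage points (MV4;11 minus MOLM13, unadjusted p = 0.00956, adjusted p = 0.816, limma), with lower values in 3 of 3 MV4;11 hairpin 64 libraries than in any MV4;11 shNT library and overlapping groups in MOLM13. The junction out of the same exon did not show this, with a difference of 2.79 points (95% interval -15.4 to 20.96), and its groups overlapped in both lines. Of all events 5.9% were lower without overlap with hairpin 64 in MV4;11, and 0.794% were called for the line difference. The call at the junction into the exon was lost on leaving out nearly any single library. Among the 40 groups of 4 libraries examined for a library far from the others, 1 stood out, a PPP2R5A junction from an unannotated exon at 2.21% in one MOLM13 hairpin 65 library. The other libraries of that group were at 0.0%, where any value above 0 stands out, so nothing is read from it. The rate of about 1 in 20 by chance does not apply to groups at this floor.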

How the results depend on the processing

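No gene or event called in the main fit or under an alternative changed direction. Changes of direction in values called in neither are not given here. Of the values of single genes and events 1152 kept their call or stayed within the replicate spread, 34 moved beyond it, 45 lost the call and 19 gained it. Of the counts of calls 171 stayed within 1.5 times and 58 did not. The counts of called list genes and member events are small, so 1 gene moves them by over 1.5 times. For hairpin 64 in MOLM13 (1 gene) a pseudocount of 0.1, one fit over all 9 groups and the replicate block each gave 2, adjusted p under 0.05 gave 0, leaving out both libraries numbered 3 gave 3, and leaving out single libraries 1 to 2. For hairpin 65 in MOLM13 (0 genes) a pseudocount of 0.1, centring on the library median and the first shNT set as control each gave 1, and left-out libraries 0 to 1. Its events (0) were 2 in one fit, 1 with the first shNT set and 0 to 2 with left-out libraries. For hairpin 64 in MV4;11 (3 genes) no filter gave 1, centring 5 and left-out libraries 1 to 6, the 6 without shNT replicate 3, and its events (0) were 0 to 1. For hairpin 65 in MV4;11 (2 genes) no filter and adjusted p under 0.05 gave 0, one fit and the replicate block 1, and left-out libraries 0 to 3. At day 12 (0 genes) a pseudocount of 0.1 gave 1 and left-out libraries 0 to 1. Between the hairpins in MV4;11 a pseudocount of 0.1 gave 2 genes in place of 0, and left-out libraries 0 to 2. Its events (0) were 0 to 1 with left-out libraries. The 3 events between the shNT lines fell to 0 with a difference over 0.2 and at adjusted p under 0.05, with 0 to 2 for left-out libraries. The single event of the line difference fell to 0 with a difference over 0.2, in one fit and at adjusted p under 0.05, with 0 to 1 for left-out libraries. The shares of all genes and events called under each alternative are not given, so these counts show only how the calls moved. The cause of these moves was not tested. Centring on the library median and leaving out both libraries numbered 3 were chosen after seeing the data. In MV4;11 and at day 12 the libraries share only a number, with correlations from -0.65 to 0.06, and the replicate block gave 3, 1 and 0 genes for hairpin 64, hairpin 65 and day 12. Leaving out a library leaves 2 in its group, or 3 for hairpin 65 in MOLM13.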
